A study of Mus musculus with 12 samples.

Results

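The MYC, MAX and MondoA transcription network was examined as 10 genes, Myc, Max, Mnt, Mga, Mxd1, Mxd3, Mxd4, Mxi1, Mlx and Mlxip, taken by symbol from the 56748 genes of the deposited count table. They were chosen by name, with earlier results of these data known, and all 10 were among the 15688 genes abundant enough to be tested. The RNA came from mouse CD8+ T cells of 6 mice, each giving one culture with dichloroacetate (DCA) and one without, in 2 experiments of 3 mice. The groups were DCA-treated and untreated cells of experiment 1, tagged strain OT-1 with genotype C57BL/6-Tg(TcraTcrb)1100Mjb/J, and DCA-treated and untreated cells of experiment 2, tagged strain Pmel-1 on the B6.Cg-Thy1a/Cy background carrying Tg(TcraTcrb)8Rest/J. DCA inhibits the pyruvate dehydrogenase kinases and so favours entry of pyruvate into the mitochondrion. All groups shared the other culture steps: splenocytes were stimulated for 24 hours with the peptide their transgenic receptor recognises (250 nM SIINFEKL for OT-1, 1 uM gp100 for pmel-1), expanded for 6 days in IL-2 with or without 5 mM DCA, and sorted for CD8 on day 7. Each group therefore holds in vitro activated cells of mice with a single receptor transgene. Whether every sorted cell carried that receptor was not tested. The age and sex of the mice were not given in the sources used here.

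MYC and its relatives are basic helix-loop-helix leucine zipper proteins that bind the DNA element called the E-box as pairs. MYC pairs with MAX to activate genes of growth, ribosome production and metabolism, while the MXD proteins and MNT compete for MAX and recruit the SIN3-histone deacetylase corepressor to the same sites. MGA also pairs with MAX and belongs to a Polycomb complex, PRC1.6. In a parallel branch, MondoA, the product of Mlxip, pairs with MLX, senses glucose-6-phosphate and induces Txnip and Arrdc4. In T cells, MYC is induced by antigen receptor signalling and drives the switch to glycolysis and glutamine use that precedes clonal expansion.

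The canonical E-box, the 6 bases CACGTG (its own reverse complement, so a match reads the same on both strands), was searched in the promoters of the network genes themselves, because it is the element that their own proteins bind. RefSeq promoter windows of build GRCm38.p6, covering 250 bases before to 50 bases after each annotated start, were held for 9 of the 10 genes. Max, Mnt, Mxd4 and Mlx held 1 match each, and Mga, Mxd1, Mxd3, Mxi1 and Mlxip held none. The 4 matches are printed 5′ to 3′ along the gene's strand as 60 bases, with the E-box in capitals. The Max stretch is chr12:76962219-76962278 on the minus strand, the Mnt stretch chr11:74830774-74830833 on the plus strand, the Mxd4 stretch chr5:34187897-34187956 on the minus strand and the Mlx stretch chr11:101087223-101087282 on the plus strand.
Max: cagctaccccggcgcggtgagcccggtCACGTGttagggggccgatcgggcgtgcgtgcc
Mnt: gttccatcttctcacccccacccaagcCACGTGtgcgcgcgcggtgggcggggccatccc
Mxd4: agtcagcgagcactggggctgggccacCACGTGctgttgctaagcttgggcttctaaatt
Mlx: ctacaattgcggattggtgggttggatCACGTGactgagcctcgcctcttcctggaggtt
In Max the E-box began 3 bases before the annotated start and so spans it, in Mlx it began 40 bases before, in Mnt 123 and in Mxd4 219. The share of network genes with a match in any of their windows was 44.4%, beside 11.6% of the 10259 tested genes that had a window. Counted by window and not by gene, 7.15% of all 32851 windows of the same length held a match. Of 40 genes listed as MYC-induced, 32 had a window and 11 of these (34.4%) held the E-box. A match is a description of these letters and not evidence of binding.

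The 12 libraries held 28039699 to 41051066 counts, and the 10 genes were covered by 44 counts (Mxd4, an untreated library of experiment 1) to 38284 counts (Myc, experiment 2). Libraries of experiment 2 detected 23635 to 26571 genes, against 18382 to 19551 in experiment 1. Sample titles name Pmel-1 cells in both experiments, but experiment 1 is tagged OT-1. The beta chain segment Trbv14 gave 1970 to 2880 CPM in experiment 2, against 0 in experiment 1, while Trbv12-1 gave no more than 0.55 CPM in experiment 2, against at least 169 CPM in experiment 1, so the libraries differ by receptor as the strain tags do and not as the titles read. Experiment, strain and any difference in handling coincide and cannot be told apart. CD8 T cell markers summed to 3580 to 5000 CPM in every library, while CD4 T cell, B cell, monocyte, dendritic, and erythroid and platelet lists stayed at or below 3.15 CPM. The 4 NK cell markers summed to 2.75 to 8.08 CPM in experiment 2 and 32.8 to 59.1 CPM in experiment 1, with Eomes, which activated CD8 T cells also express, at 2.11 to 47.7 CPM, Klrb1c, which encodes NK1.1, at 0.0579 to 11.7 CPM and at 0 in no library, and Ncr1 and Klra8 at 0 to 0.132 CPM.

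Set against each other per kilobase of gene length, Myc was far the most abundant transcript of the network. The antagonists Mxd1, Mnt and Mxd4 had the lowest means in every group. Levels here are CPM, counts relative to library size after scaling by trimmed mean of M values (TMM), divided by the gene length in the authors' deposited table. In experiment 1 Myc averaged 85.6 ± 3.55 CPM per kb with DCA and 128 ± 11 untreated (SD, n = 3 each). The corresponding means in experiment 2 were 333 ± 40.9 CPM per kb with DCA and 270 ± 10.9 untreated (SD, n = 3 each). Mlx, the shared partner of the Mondo branch, came next at means of 29.3 to 30.6 CPM per kb, followed by Mxd3 at 16.5 to 25.0. Max stood below Mxd3 in every group, at 6.77 to 15.6 CPM per kb, and Mxi1 below Max, at 4.15 to 7.43. The libraries of Max and Mxi1 overlapped in both groups of experiment 2 and stood apart in both groups of experiment 1. Mga and Mlxip followed at 2.34 to 2.97 CPM per kb and overlapped in every group except untreated cells of experiment 1. Mxd1 and Mnt lay at 1.03 to 2.21 CPM per kb and overlapped each other in experiment 1 alone, and Mxd4 was lowest in every group, at 0.336 to 1.06. With DCA, Mxd4 overlapped its nearest neighbour in both experiments (Mxd1 in experiment 1, Mnt in experiment 2), and Mlxip overlapped Mxd1 in experiment 2.

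**Figure D1:**
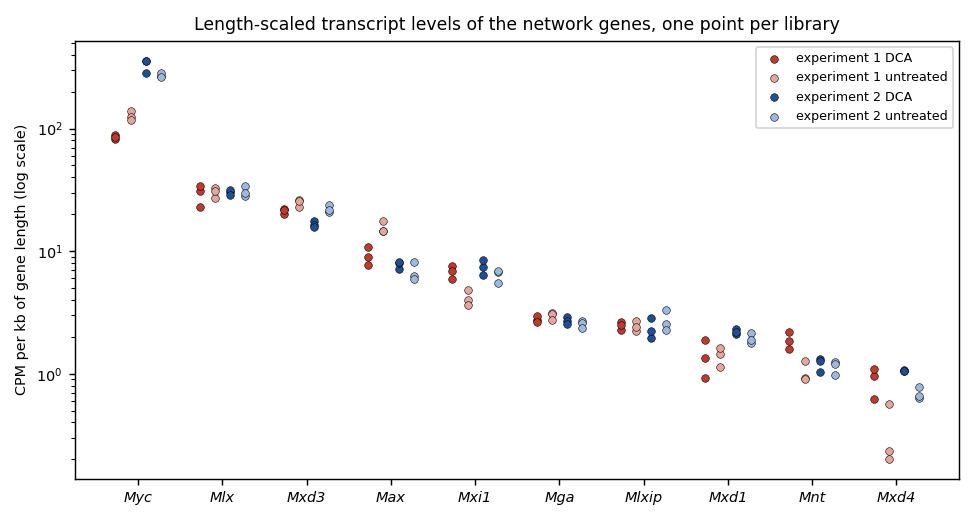
Level of each network gene in CPM per kb of gene length (log axis), one point per library, with DCA-treated and untreated cells of experiments 1 and 2 side by side. Myc lies above every other member in all 12 libraries and Mxd4 is lowest in every group by its mean.

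As a description of stoichiometry at the transcript level, Myc was divided by the summed length-scaled level of its antagonists Mnt, Mga, Mxd1, Mxd3, Mxd4 and Mxi1. In experiment 1 the ratio was 2.22 to 2.69 in the DCA-treated libraries, against 3.28 to 3.88 in the untreated ones. Experiment 2 gave ratios of 8.75 to 12.1 in the DCA-treated libraries, against 7.56 to 8.00 in the untreated ones. The ratio was therefore lower with DCA in one experiment and higher with it in the other, without overlap in either. The summed antagonists had means of 35.2 (DCA) and 34.8 (untreated) CPM per kb in experiment 1, and 31.1 (DCA) and 34.8 (untreated) in experiment 2, where all DCA-treated libraries lay below the untreated ones. Mxd3 was the largest term of this sum, at 21.4 (DCA) and 25.0 (untreated) in experiment 1 and 16.5 (DCA) and 22.1 (untreated) in experiment 2. Mxi1, Mnt and Mxd4 had higher means with DCA in both experiments. Mga and Mxd1 had lower means with DCA in experiment 1 and higher ones in experiment 2. For the Mondo branch, Mlx over Mlxip was 8.73 to 13.6 with DCA and 10.1 to 14.6 untreated in experiment 1, and 10.7 to 16.1 with DCA and 8.40 to 13.4 untreated in experiment 2, with overlap in both. These ratios are of RNA and carry no test.

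Across both experiments, 3 of the 10 genes passed the test for DCA against untreated (edgeR's quasi-likelihood test with a term for experiment, adjusted p under 0.05 over all 15688 genes), and all 3 belong to the MXD family of MYC antagonists. Mxd4 and Mxi1 rose and Mxd3 fell, each in the same direction in 6 of 6 mice. By the same rule 16.8% of all tested genes were called, 7.01% higher and 9.80% lower, a split of 1100 to 1538 genes that became 1231 to 1041 under cyclic loess scaling. The median log2 fold change of the 10 genes was -0.02, as it was for all genes. The authors' deposited table also has 3 of the 10 genes under an FDR of 0.05, the same Mxd4, Mxi1 and Mxd3.

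Mxd4, an MXD protein that pairs with MAX and represses, had the largest fold change of the 10 genes over both experiments and, per kilobase, the lowest level. In bulk RNA, more cells with a transcript and more transcript per cell cannot be told apart. With DCA it was at 8.10, 5.31 and 9.27 CPM in experiment 1, against 1.72, 2.00 and 4.84 CPM untreated. Cells of experiment 2 had 8.99, 9.19 and 8.89 CPM with DCA, against 6.66, 5.40 and 5.58 CPM untreated. All DCA-treated libraries lay above all untreated ones within each experiment, and the spread was wide in experiment 1, where the untreated library of mouse 3 stood above the other two. The log2 fold change was 1.00 ± 0.25 (SE, adjusted p = 0.0126) over both experiments. It was 1.41 ± 0.33 (adjusted p = 0.0107) in experiment 1, ranging over 1.15 to 2.02 as single libraries were left out, and 0.62 ± 0.32 (adjusted p = 0.329) in experiment 2.

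Mxi1, also called Mad2, is another MAX-binding repressor. It was at 51.6, 40.1 and 47.1 CPM with DCA in experiment 1, against 27.2, 24.8 and 32.9 CPM untreated. The values in experiment 2 were 50.8, 43.5 and 57.9 CPM with DCA, against 46.0, 37.4 and 46.8 CPM untreated. The groups were apart in experiment 1 and overlapped in experiment 2, although each mouse of experiment 2 had the higher value with DCA, by 0.143 to 0.307 on the log2 scale. The log2 fold change was 0.46 ± 0.12 (SE, adjusted p = 0.0151) over both experiments, 0.71 ± 0.15 (adjusted p = 0.00486) in experiment 1 and 0.23 ± 0.14 (adjusted p = 0.454) in experiment 2.

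Mxd3, the most abundant MXD transcript here and one known from proliferating cells, moved the other way. It was at 52.7, 47.9 and 51.7 CPM with DCA in experiment 1, against 62.4, 53.8 and 61.2 CPM untreated. Experiment 2 gave 41.7, 38.7 and 36.9 CPM with DCA, against 49.2, 56.6 and 51.4 CPM untreated. The libraries did not overlap in either experiment. Over both experiments Mxd3 fell by 0.32 on the log2 scale (SE 0.07, adjusted p = 0.00888), and under cyclic loess the log2 fold change was -0.24 and the call was lost (adjusted p = 0.052). Within experiment 2 Mxd3 fell by 0.42 (SE 0.10, adjusted p = 0.0256), a call lost without the untreated library of mouse 2 (adjusted p = 0.102) or any one of the DCA-treated libraries of mice 1, 2 and 3 (adjusted p = 0.0524, 0.0795 and 0.0705), and in experiment 1 its log2 fold change was -0.22 ± 0.10 (adjusted p = 0.149). In the GRCm38 annotation Mxd3 shares 105 bases with Prelid1 on the opposite strand, at a mean of 537 CPM, and whether counting used strand was not given in the sources used here. Prelid1 itself had a log2 fold change of -0.01 (adjusted p = 0.928) with DCA.

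The remaining MXD gene, Mxd1, a repressor associated with differentiation, had values of 9.47, 13.4 and 6.51 CPM with DCA and 10.3, 11.4 and 8.09 CPM untreated in experiment 1. Its values in experiment 2 were 16.3, 14.9 and 15.5 CPM with DCA and 15.2, 12.6 and 13.2 CPM untreated. The groups overlapped in both experiments, and the log2 fold change was 0.09 ± 0.15 (SE, adjusted p = 0.768) over both.

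**Figure D2:**
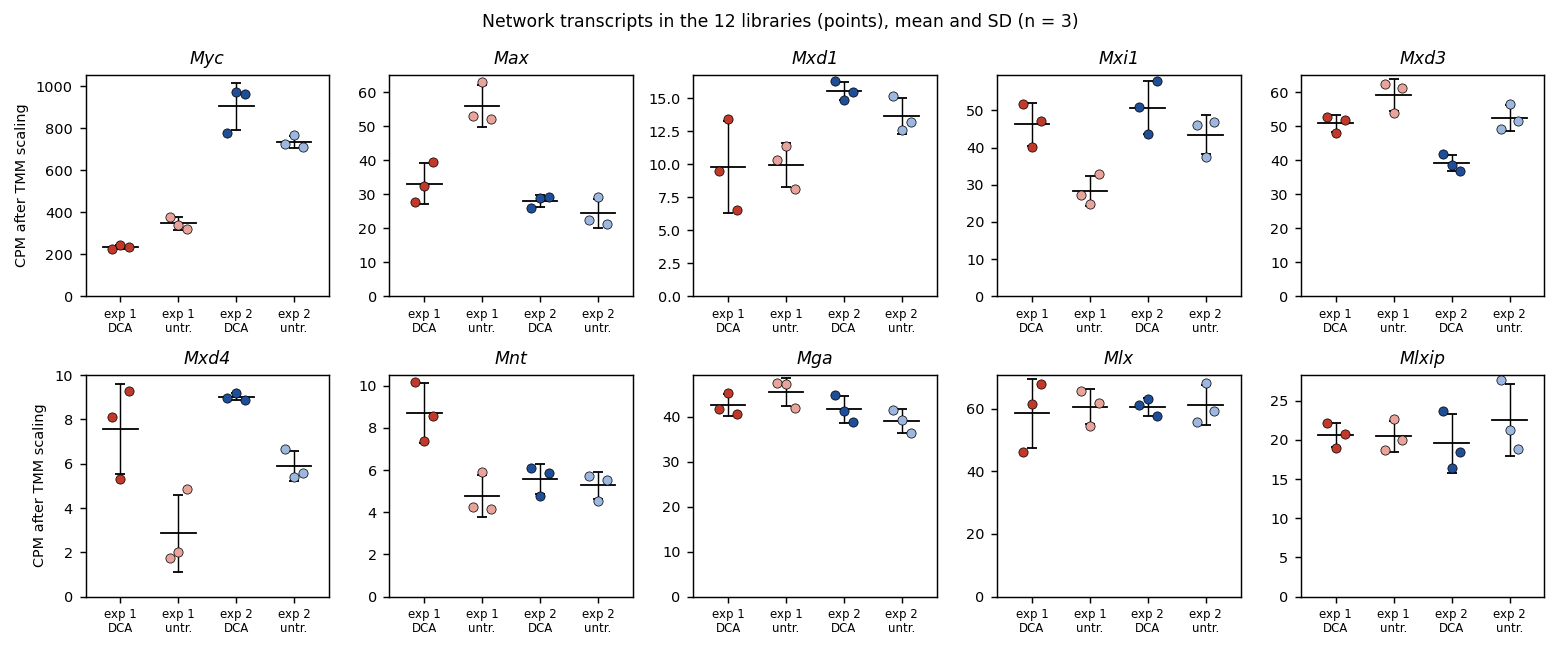
CPM after TMM scaling of each network gene (vertical axes start at 0), with 1 point per library, DCA-treated left of untreated in each experiment, and lines for the mean and SD (n = 3). Myc and Max are lower with DCA in experiment 1 and Myc is above its untreated libraries in experiment 2, while Mxd4 is higher and Mxd3 lower with DCA in both.

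Myc itself did not pass the test over both experiments (log2 fold change -0.14 ± 0.13 SE, adjusted p = 0.540), and its values ran in opposite directions in the 2 experiments. In experiment 1 Myc was at 223, 243 and 232 CPM with DCA, against 379, 340 and 321 CPM untreated. Experiment 2 had Myc at 776, 973 and 964 CPM with DCA, against 723, 768 and 712 CPM untreated. The libraries were apart in both experiments, all DCA-treated ones below the untreated in experiment 1 and above them in experiment 2. With DCA, Myc fell by 0.58 on the log2 scale in experiment 1 (SE 0.09, adjusted p = 0.000769), with all 3 mice lower. In experiment 2 the log2 fold change was 0.30 ± 0.09 (adjusted p = 0.0649), with all 3 mice higher by 0.103 to 0.437. The marker lists that follow are in CPM without TMM scaling, unlike Myc. The CD8 T cell list was at 4330 to 4720 CPM with DCA and 3580 to 4290 CPM untreated in experiment 1. It was at 3780 to 3950 CPM with DCA and 4490 to 5000 CPM untreated in experiment 2. On this unscaled measure its groups were apart in both experiments. TMM scaling divides by 0.910 to 0.934 with DCA and 0.818 to 0.845 untreated in experiment 1. The separation of the CD8 list there does not carry over to that scale. The NK list was at 32.8 to 37.2 CPM with DCA and 38.3 to 59.1 CPM untreated in experiment 1, and 2.75 to 5.85 CPM with DCA and 6.66 to 8.08 CPM untreated in experiment 2. The monocyte list was at 1.49 to 3.15 CPM with DCA and 0.976 to 1.75 CPM untreated in experiment 1, and 0.877 to 2.89 CPM with DCA and 0.0344 to 0.541 CPM untreated in experiment 2. The erythroid and platelet list was at 0.65 to 0.894 CPM with DCA and 0.169 to 0.584 CPM untreated in experiment 2, and the part of these lists in the Myc result was not tested. The Myc value in experiment 2 missed the threshold, and it passed it without the DCA-treated library of mouse 1 (adjusted p = 0.0476), under DESeq2 (0.0433), limma-voom (0.0283), cyclic loess (0.0142), no filter (0.0156), the stricter filter (0.0402) and when experiment 2 was analysed alone (0.0339). Myc stayed uncalled there with relative log expression size factors and with a term for each mouse. The same held with any other single library left out (adjusted p up to 0.388).

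The 2 effects of DCA on Myc differed by the test of the difference itself, experiment 2 minus experiment 1. The difference was 0.88 ± 0.12 on the log2 scale (SE, adjusted p = 0.0107). It was called for 52 of all genes (0.331%), or 24 with a term for each mouse, in which Myc remained called, and Myc was the only one of the 10 network genes among the 52. The adjusted p rose above 0.05 when any one of 5 libraries of experiment 2 was left out, the untreated libraries of mice 1, 2 and 3 (0.0998, 0.0616 and 0.0844) or the DCA-treated libraries of mice 2 and 3 (0.0920 and 0.126), while the difference stayed between 0.73 and 0.93.

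Max, the obligate partner, fell alongside Myc in experiment 1. It was at 27.6, 32.3 and 39.4 CPM with DCA there, against 52.9, 63.0 and 52.0 CPM untreated. Max stood at 25.9, 29.0 and 29.2 CPM with DCA and 22.5, 29.3 and 21.2 CPM untreated in experiment 2. The groups were apart in experiment 1 and overlapped in experiment 2. Max fell by 0.76 on the log2 scale in experiment 1 (SE 0.15, adjusted p = 0.00390), and the log2 fold change was 0.21 ± 0.15 (adjusted p = 0.535) in experiment 2. The difference of the effects was 0.96 ± 0.21 with an adjusted p of 0.0678. It passed the threshold under DESeq2 (0.0032), limma-voom (0.0450) and with no filter (0.000382), and without either the DCA-treated (0.0437) or the untreated (0.0473) library of mouse 3 in experiment 1.

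Mnt, the MAX-binding repressor present in most cell types, rose in experiment 1. It was at 10.2, 7.39 and 8.57 CPM with DCA there, against 4.25, 5.90 and 4.17 CPM untreated. Its levels in experiment 2 were 6.08, 4.79 and 5.87 CPM with DCA and 5.74, 4.52 and 5.55 CPM untreated, which overlap. The log2 fold change was 0.86 ± 0.22 (SE, adjusted p = 0.0146) in experiment 1, 0.08 ± 0.21 (adjusted p = 0.906) in experiment 2 and 0.47 ± 0.18 (adjusted p = 0.0905) over both. The call in experiment 1 was lost without the DCA-treated library of mouse 1 (adjusted p = 0.0630) or the untreated one (0.0582), and the difference between experiments was -0.78 ± 0.30 (adjusted p = 0.251).

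Mga, Mlx and Mlxip had overlapping libraries in both experiments. Mga, the MAX partner of PRC1.6, ranged over 38.9 to 45.4 CPM with DCA and 36.4 to 47.5 CPM untreated across the 12 libraries. Mlx ranged over 46.2 to 67.9 CPM with DCA and 54.6 to 68.2 CPM untreated. Mlxip, which encodes MondoA, ranged over 16.4 to 23.7 CPM with DCA and 18.7 to 27.7 CPM untreated. Over both experiments the log2 fold changes were -0.03 ± 0.09 for Mlx (SE, adjusted p = 0.866) and -0.10 ± 0.12 for Mlxip (adjusted p = 0.642), and the adjusted p of Mga was 0.983 with an SE of 0.08. Mlx shares 385 bases with Psmc3ip on the opposite strand in the GRCm38 annotation. Psmc3ip, at a mean of 62.0 CPM, had a log2 fold change of -0.03 with DCA.

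Counted by experiment, 5 of the 10 genes were called in experiment 1 (Mnt, Mxd4 and Mxi1 higher, Myc and Max lower), where 16.7% of all genes were called, 5.67% higher and 11% lower. That split of 889 to 1733 genes was 1069 to 1027 under cyclic loess. In experiment 2, 1 of the 10 was called (Mxd3, lower), where 4.57% of all genes were called, 2.37% higher and 2.20% lower, a split of 372 to 345 that was 391 to 216 under cyclic loess and 334 to 446 with relative log expression size factors. DCA-treated and untreated libraries did not overlap for 6 of the 10 genes in experiment 1, beside 29.3% of all genes, and for 3 of the 10 in experiment 2, beside 30.2% of all genes. The count for experiment 2 is near that background. In this test no member's effect other than that of Myc was shown to differ between the experiments.

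**Figure D3:**
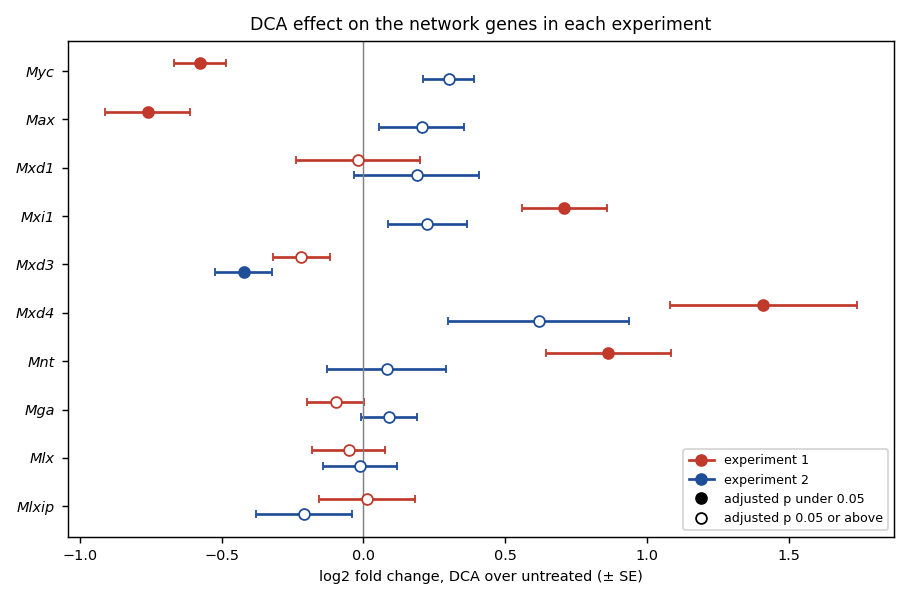
Log2 fold change, DCA over untreated, of each network gene in experiment 1 (upper mark) and experiment 2 (lower mark), with bars of 1 SE and filled points where the adjusted p is under 0.05. Myc lies at -0.58 in experiment 1 and 0.30 in experiment 2, while Mxd3 is below 0 and Mxd4 and Mxi1 are above 0 in both.

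Between the experiments the largest fold changes among the 10 genes were those of Max, Myc and Mxd4 in untreated cells and that of Myc in DCA-treated cells. Untreated cells of experiment 2 had 734 ± 29.6 CPM and those of experiment 1 had 347 ± 29.8 CPM (SD, n = 3 each), a log2 fold change of 1.08 ± 0.09 (SE, adjusted p = 7.63e-08). In DCA-treated cells the difference was larger, with 904 ± 111 CPM in experiment 2 and 232 ± 9.66 CPM in experiment 1 (SD, n = 3 each), a log2 fold change of 1.96 ± 0.09 (adjusted p = 2.08e-10). Max ran the other way in untreated cells, at 24.3 ± 4.38 CPM in experiment 2 and 56.0 ± 6.12 CPM in experiment 1 (log2 fold change -1.20 ± 0.15, adjusted p = 9.11e-06). In DCA-treated cells Max was at 28.1 ± 1.82 CPM in experiment 2 and 33.1 ± 5.91 CPM in experiment 1 (log2 fold change -0.24 ± 0.15, adjusted p = 0.205). Untreated cells thus carried more Myc and less Max in experiment 2 than in experiment 1.

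Of the antagonists, Mxi1 (log2 fold change 0.62, adjusted p = 0.00245) and Mxd4 (1.04, adjusted p = 0.0162) were higher in experiment 2 than in experiment 1 in untreated cells. The Mxd4 call was lost without untreated library 1 (adjusted p = 0.0684) or 2 (0.0720) of experiment 1. In DCA-treated cells, Mxd1 was higher in experiment 2 (0.67, adjusted p = 0.0187), and Mnt (-0.64, adjusted p = 0.0211) and Mxd3 (-0.38, adjusted p = 0.00485) were lower. The Mnt call was lost without DCA-treated library 1 of experiment 1 (adjusted p = 0.0897) or 2 of experiment 2 (0.0754). The Mxd1 call was lost without DCA-treated libraries 1 (0.0501) or 3 (0.0762) of experiment 1, or 1 (0.0580) or 3 (0.0514) of experiment 2. Each contrast called 4 of the 10 genes, beside 51.8% of all genes in untreated and 52.3% in DCA-treated cells, so the share of members called was not above that of genes at large. The median of all genes was itself shifted in these contrasts, by 0.11 on the log2 scale in both, and by -0.02 (untreated) and -0.03 (DCA) under cyclic loess.

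Of the relatives of Myc and MondoA, Mycn, a MYC paralog, was detected in every library and Mycl and Mlxipl were scarce. Mycn was at 13.3 to 26.7 CPM with DCA and 21.2 to 30.6 CPM untreated, with a log2 fold change of -0.31 ± 0.14 over both experiments (SE, adjusted p = 0.151). In experiment 1 all DCA-treated libraries lay below the untreated ones (log2 fold change -0.55 ± 0.19, adjusted p = 0.0584), a value that passed the threshold under DESeq2 and limma-voom, and in experiment 2 the libraries overlapped (-0.09 ± 0.18, adjusted p = 0.878). Mycl reached at most 0.529 CPM and Mlxipl, which encodes the glucose sensor ChREBP, at most 0.489 CPM, and neither was tested.

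Most listed genes that MYC is known to induce were called lower with DCA in experiment 1. Of 40 listed genes of ribosome production, nucleotide synthesis, amino acid uptake and the cell cycle, 29 fell and none rose in experiment 1, where 11% of all genes were called lower, and the median log2 fold change was -0.47 beside -0.03 for all genes. The number that fell was 17 under cyclic loess and 21 to 31 as single libraries were left out. The largest falls were those of Srm (1.14 on the log2 scale, adjusted p = 0.00344), which makes spermidine, Rrp9 (1.05, adjusted p = 0.000288) of pre-rRNA processing, and Apex1 (0.92, adjusted p = 0.000823), a DNA repair endonuclease, named here after their values were seen. In experiment 2, 1 rose, Npm1 (0.32, adjusted p = 0.0409), a nucleolar chaperone, and 1 fell, Ppat (-0.45, adjusted p = 0.0354), the first enzyme of purine synthesis, with a median of -0.10 beside 0.00 for all genes. None of the 40 rose with any one library of experiment 2 left out or with a term for each mouse, and none fell without the DCA-treated libraries of mice 1 or 2 or the untreated library of mouse 2. For 38 of the 40 genes the effect was higher in experiment 2 than in experiment 1, with a median difference of 0.36 beside 0.04 for all genes, but none of the 40 passed the test of that difference. Between the experiments the list did not follow Myc, which was higher in experiment 2. In untreated cells 9 of the 40 were called higher in experiment 2 and 21 lower (median -0.33, all genes 0.11). The shares of all genes were 26.7% higher and 25.2% lower. In DCA-treated cells 15 were higher and 16 lower (median -0.01, all genes 0.11), beside 28.1% and 24.1% of all genes.

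Over both experiments, 19 of the 40 MYC-induced genes fell and none rose, where 9.80% of all genes were called lower and 7.01% higher, and the median was -0.31 beside -0.02 for all genes. The numbers were 12 fallen and 3 risen under cyclic loess, and 15 fallen with a term for each mouse. Ppat averaged 104 ± 10.9 CPM with DCA and 153 ± 3.82 CPM untreated in experiment 1, and 75.7 ± 10.1 CPM with DCA and 104 ± 12.4 CPM untreated in experiment 2 (SD, n = 3 each). Its log2 fold change was -0.51 over both experiments (adjusted p = 0.000889). Cdk4, the cyclin-dependent kinase of G1, fell by 0.32 (adjusted p = 0.00267), and Pa2g4, which encodes a growth-associated ribosome-binding protein, fell by 0.50 (adjusted p = 0.00273). Among all tested genes with a promoter window, 18.1% of the 1187 gene IDs with an E-box and 12.6% of the 9073 without one (where 2 IDs share 1 symbol) were lower with DCA in experiment 1, and 6.82% and 6.51% of these were higher. In experiment 2 the shares lower were 2.7% with and 2.53% without an E-box, and over both experiments 14.7% and 11.4%. The shares higher were 3.54% with and 2.83% without an E-box in experiment 2, and 9.1% and 8.1% over both experiments. The listed genes are known MYC targets from other work, and their dependence on MYC was not tested.

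Of 7 genes that MYC is known to repress, 6 were tested. Cdkn1a, which encodes the cyclin-dependent kinase inhibitor p21, rose in both experiments. It averaged 323 ± 35.1 CPM with DCA and 192 ± 24.0 CPM untreated in experiment 1, and 528 ± 28.9 CPM with DCA and 285 ± 31.3 CPM untreated in experiment 2 (SD, n = 3 each). The log2 fold change was 0.82 over both experiments (adjusted p = 3.12e-05). In experiment 1, Cdkn1b (0.88, adjusted p = 0.0167), which encodes the related inhibitor p27, and Ndrg1 (0.63, adjusted p = 0.0264), a stress-responsive gene, also rose, while Cdkn2b (-1.18, adjusted p = 0.00641), which encodes the inhibitor p15, fell. In experiment 1, 3 of the 6 rose and 1 fell (median 0.37, all genes -0.03). The shares of all genes there were 5.67% higher and 11% lower. Over both experiments 1 rose and none fell (median 0.15, all genes -0.02), beside 7.01% and 9.80% of all genes. The number that rose in experiment 1 was 2 with that experiment analysed alone. It was 1 without the DCA-treated library of mouse 1 or the untreated libraries of mice 1 or 2. The difference from experiment 2 was not called for any of the 6. Between the experiments, 3 of the 6 were higher in experiment 2 in untreated cells (median 0.55, all genes 0.11). In DCA-treated cells 5 of the 6 were higher (median 1.29, all genes 0.11). None was called lower in either contrast, and 26.7% (untreated) and 28.1% (DCA) of all genes were called higher.

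Genes of MYC's coactivators, and Zbtb17 (Miz1) listed with them, were called lower or not called. Of 12 listed genes, 6 fell and none rose over both experiments (median -0.36, all genes -0.02), where 9.80% of all genes were called lower. The number that fell was 7 in experiment 1, beside 11% of all genes, and 1 in experiment 2, beside 2.20%. Wdr5, a chromatin adaptor that binds MYC, averaged 24.2 ± 2.37 CPM with DCA and 37.2 ± 1.87 CPM untreated in experiment 1, and 28.6 ± 1.59 CPM with DCA and 40.6 ± 6.99 CPM untreated in experiment 2 (SD, n = 3 each). It fell by 0.56 over both experiments (adjusted p = 0.00116) and was the 1 gene called in experiment 2, a call lost with a term for each mouse, and without any one of the DCA-treated libraries of experiment 2, its untreated libraries of mice 1 and 2, or the untreated library of mouse 1 in experiment 1. Actl6a, an actin-related subunit of chromatin remodelling complexes, fell by 0.44 (adjusted p = 0.00357), and Ruvbl2, an ATPase of the TIP60 complex, fell by 0.46 (adjusted p = 0.00487).

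The corepressor arm through which MXD and MNT act gave mixed calls. Of 11 genes of the SIN3-histone deacetylase complex, 1 rose and 3 fell over both experiments (median -0.16, all genes -0.02), where 7.01% of all genes were called higher and 9.80% lower. Suds3, a SIN3-binding subunit, rose, at 29.1 ± 1.34 CPM with DCA and 21.1 ± 1.12 CPM untreated in experiment 1, and 11.3 ± 0.788 CPM with DCA and 7.89 ± 0.275 CPM untreated in experiment 2 (SD, n = 3 each). Its log2 fold change was 0.49 (adjusted p = 0.0015), while the subunit gene Sap18 fell by 0.26 (adjusted p = 0.00187), the histone chaperone gene Rbbp4 by 0.23 (adjusted p = 0.0213) and the deacetylase gene Hdac2 by 0.27 (adjusted p = 0.0322). The 3 falls came to 1 under cyclic loess and with a term for each mouse, and to 1 to 5 as single libraries were left out. Of the 9 PRC1.6 partners of MGA, 1 fell, Cbx3 (-0.20, adjusted p = 0.0125), which encodes the heterochromatin protein HP1 gamma, near the 9.80% of all genes, and none was called under cyclic loess.

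Genes that control the turnover of MYC protein also included calls. Of 15, 6 fell and none rose over both experiments (median -0.20, all genes -0.02), where 9.80% of all genes were called lower. The number that fell was 3 under cyclic loess. Aurka, a mitotic kinase that stabilises MYC family proteins, fell by 0.31 (adjusted p = 0.0083), and Stub1, which encodes the ubiquitin ligase CHIP, fell by 0.33 (adjusted p = 0.00999). The list holds genes that stabilise and genes that degrade MYC, and protein was not measured.

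**Figure D4:**
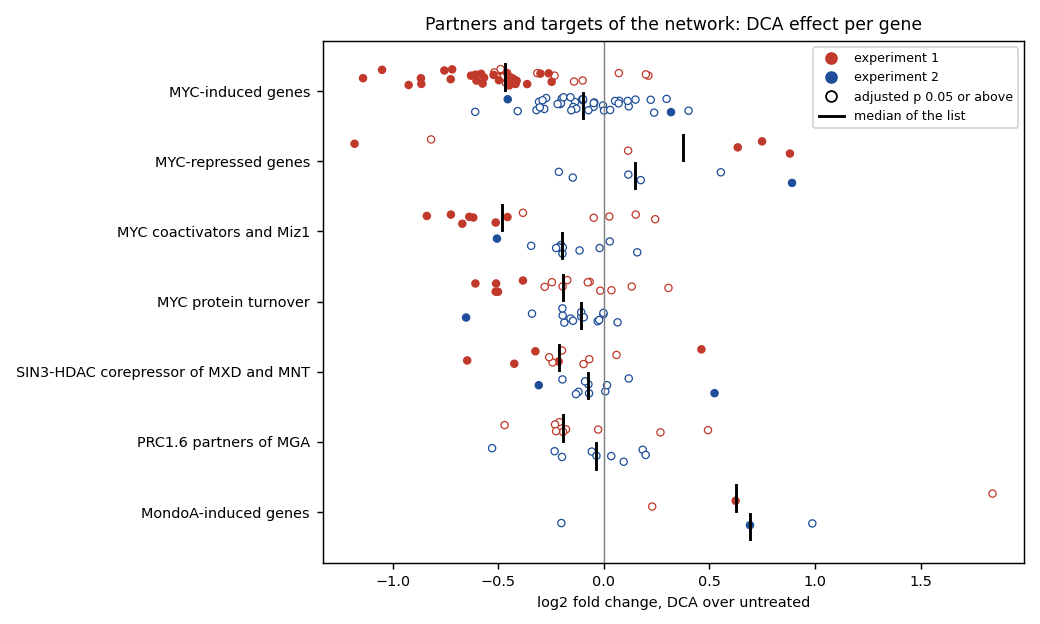
Log2 fold change, DCA over untreated, of each gene in the lists of network partners and targets, with experiment 1 above experiment 2 in each list, filled points for an adjusted p under 0.05 and a bar at the median of the list. The MYC-induced genes have a median of -0.47 in experiment 1 and -0.10 in experiment 2.

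Downstream of MondoA, Txnip rose with DCA in both experiments although Mlxip and Mlx gave no call. Txnip encodes an arrestin-like protein that limits glucose uptake. It was at 90.1, 76.0 and 75.9 CPM with DCA in experiment 1, against 54.8, 54.4 and 47.7 CPM untreated. In experiment 2 it was at 170.0, 172 and 154 CPM with DCA, against 97.2, 101 and 109 CPM untreated. The groups were apart in both experiments, and the log2 fold change was 0.66 ± 0.07 over both (SE, adjusted p = 5e-05), with a difference between experiments of 0.07 (adjusted p = 0.875). Arrdc4, the related arrestin-like gene, was at 1.69 to 3.73 CPM with DCA and 0 to 1.74 CPM untreated, with a log2 fold change of 1.39 ± 0.48 (adjusted p = 0.0595). The Arrdc4 value of 0 was that of the untreated library of mouse 1 in experiment 1. Klf10, another gene reported as induced by MondoA, had a log2 fold change of 0.01 ± 0.11 (adjusted p = 0.975). Of these 3 genes, 1 was called higher over both experiments, beside 7.01% of all genes. The number was 2 under DESeq2, with no filter, without untreated library 1 of experiment 1 and without DCA-treated library 3 of experiment 2. It was 0 without a term for experiment.

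The genes whose pattern over the 12 libraries lay closest to a member were found by the root mean square difference of log2 CPM, after each gene was centred within each experiment, among 7913 genes. Myc, whose own root mean square deviation was 0.247, was closest to Sac3d1 (0.0941), to Hspa8 (0.0942), which encodes the constitutive chaperone HSC70, and to Txn2 (0.0986), the mitochondrial thioredoxin gene. Mxd3 (own deviation 0.185) was closest to Ctsw (0.0664), a cathepsin gene of cytotoxic lymphocytes, Clta (0.0715), a clathrin light chain gene, and Cotl1 (0.0727), which encodes an actin-binding protein. Mxd4 (own deviation 0.684) was closest to Serpinb6b (0.216), a serine protease inhibitor gene, Ano10 (0.291) and Gm36738 (0.307). These are descriptions of similarity in the same libraries.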

How the data were processed

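RNA of mouse CD8+ T cells was sequenced from 12 libraries, DCA-treated and untreated cells of 6 mice (3 per experiment), after cDNA amplification by 15 cycles per the labels' protocols. The deposited count table holds whole-number counts per gene. The submitters' processing notes name fastp 0.23.2, STAR 2.7.10a, edgeR 3.36.0 and build GRCm39, with no roles. The annotation release, counter and strand setting were not given in the sources used here. The authors' deposited table gives log2 fold changes (DCA minus untreated), log2 CPM, p-values, FDR values and gene lengths for 15067 genes. It paired IDs with 15067 symbols, and a gene list gave 37502 more.

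From the counts, edgeR 4.0.16 (R 4.3.3) was run with TMM scaling, its expression filter over the 4 groups, the quasi-likelihood test and Benjamini-Hochberg adjustment over 15688 genes at 0.05. Both experiments were fitted with terms for experiment and treatment, and single experiments, their difference and experiment 2 against 1 with 4 group means. The SE was derived from the fold change and its F value. Alternatives were relative log expression size factors, DESeq2 1.42.0, limma-voom and cyclic loess (limma 3.58.1), no filter, a filter at 5 CPM in 3 libraries, a term per mouse, no term for experiment, each experiment alone, and each library left out. The fits were tested on simulated data. The p-values measure the spread between libraries of different mice. Outside the fit with a term per mouse, the 2 cultures of a mouse were treated as independent. For experiment 2 against 1 the p-values do not measure the spread between experiments. Replicates differed by more than counting noise (chi-square per degree of freedom 10.8 to 29.8).

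Same-numbered libraries come from one mouse, so the design pairs them. Deviations from group means correlated at 0.0443 to 0.0834 within a mouse and -0.0689 to -0.00438 between mice.

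All 10 members were named, with Mycn, Mycl, Mlxipl, Txnip, Arrdc4 and Klf10. Other lists gave up to 3 rising and 3 falling genes called over both experiments, by adjusted p. One gene that this rule names is not reported here. Pattern likeness took 3 genes (mean log2 CPM of at least 3) for Myc and for the 2 members of smallest adjusted p. Members and lists were chosen with earlier results of these data known. Promoter sequences are from RefSeq (GRCm38.p6). Overlaps of genes are from the GRCm38 annotation, another build than that of the counts, so no file coordinates were set beside them.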

Additional observations from a re-analysis of the deposited data

Results flagged for a closer look

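The effect of DCA on Myc differed between the experiments, by a test of the difference itself. With DCA Myc averaged 904 ± 111 CPM, against 734 ± 29.6 CPM untreated, in experiment 2, and 232 ± 9.66 CPM, against 347 ± 29.8 CPM untreated, in experiment 1 (SD, n = 3 each). The log2 fold change was 0.88 higher in experiment 2 than in experiment 1 (edgeR's quasi-likelihood test, adjusted p = 0.0107). This call held in 7 of the 12 fits with a single library left out, with an adjusted p of up to 0.126 by the same test. All 3 mice of experiment 2 were higher with DCA and all 3 of experiment 1 were lower. The marker lists are in CPM without TMM scaling. Among them, the CD8 T cell list was at 3780 to 3950 CPM with DCA and 4490 to 5000 CPM untreated in experiment 2. It was at 4330 to 4720 CPM with DCA and 3580 to 4290 CPM untreated in experiment 1, a separation that does not carry over to TMM-scaled CPM. The monocyte list (0.877 to 2.89 CPM with DCA, 0.0344 to 0.541 CPM untreated) and the erythroid and platelet list (0.65 to 0.894 CPM with DCA, 0.169 to 0.584 CPM untreated) were apart in experiment 2. The NK list was at 2.75 to 5.85 CPM with DCA and 6.66 to 8.08 CPM untreated in experiment 2, and at 32.8 to 37.2 CPM with DCA and 38.3 to 59.1 CPM untreated in experiment 1, and the part of these lists in the result was not tested. The part that strain or handling has in the difference cannot be told apart from the experiment.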

How the results depend on the processing

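The calls of Mxd4, Mxi1 and Mxd3 over both experiments and of Myc, Max, Mxd4 and Mxi1 in experiment 1 held with each library left out. Without a term for experiment, 46 genes and 0 members were called over both experiments. In experiment 1 analysed alone, 1251 genes were called. In experiment 2 the numbers were 1512 genes under DESeq2, 1171 under limma-voom, 1116 with no filter and 1564 alone. There 2 members were called under DESeq2, limma-voom, cyclic loess, no filter and the stricter filter, and 3 alone. The difference of effects called 451 genes under DESeq2, 30 under cyclic loess, 566 with no filter and 24 with the replicate block, and 2 members under DESeq2, limma-voom and no filter. The replicate block, a term per mouse, changed no call of a member. No paired analysis was possible for experiment 2 against 1 because the mice differ.

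With single libraries left out, called genes numbered 1981 to 2588 over both experiments, 1759 to 2653 in experiment 1, 210 to 824 in experiment 2, 1 to 217 for the difference, 7435 to 8361 between untreated and 7261 to 8422 between DCA-treated cells. Called members numbered 3 to 3, 4 to 5, 0 to 1, 0 to 2, 3 to 5 and 2 to 4 in the same order.

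Signs that turned were all of uncalled log2 fold changes. Over both experiments these were Mga 0.0011 (limma-voom), 0.06 (cyclic loess) and 0.04 (stricter filter), Mlx 0.05 (cyclic loess) and 0.01 (stricter filter), and Myc 0.01 (cyclic loess) and 0.07 (no term for experiment). In experiment 1 these were Mga 0.02 and Mlx 0.07 (cyclic loess), Mxd1 0.07 and Mlx 0.04 (stricter filter), and Mxd1 0.06 and Mlx 0.02 (alone). In experiment 2 these were Mnt -0.04 and Mlx 0.03 (cyclic loess). For the difference these were Mlx -0.04 (cyclic loess) and -0.05 (stricter filter). Between experiments these were Mnt -0.11 and Mlxip -0.01 (untreated, cyclic loess) and Mga 0.01 (DCA, no filter). The cause was not tested.

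Ranges that crossed 0 with single libraries left out were, over both experiments, -0.03 to 0.02 (Mga), -0.03 to 0.20 (Mxd1) and -0.08 to 0.03 (Mlx). In experiment 1 they were -0.31 to 0.20 (Mxd1), -0.17 to 0.09 (Mlx) and -0.05 to 0.09 (Mlxip). In experiment 2 they were -0.05 to 0.14 (Mnt), -0.0024 to 0.09 (Mga) and -0.13 to 0.04 (Mlx). For the difference they were -0.01 to 0.50 (Mxd1) and -0.12 to 0.16 (Mlx). Between untreated cells they were -0.06 to 0.16 (Mlx), and between DCA-treated cells -0.10 to 0.02 (Mga), -0.0040 to 0.22 (Mxi1), -0.09 to 0.17 (Mlx) and -0.25 to 0.01 (Mlxip).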
